A study of Mus musculus with 2 samples.

Results

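Glycolysis, the cytosolic breakdown of glucose to pyruvate and lactate, was described in mouse spleen through 10 enzyme genes taken in the order of the reactions: Hk1, Hk2, Gpi1, Pfkl, Aldoa, Tpi1, Pgk1, Pgam1, Pkm and Ldha. All probe sets that the platform's annotation assigned to these genes were taken, control probe sets apart. They numbered 12 of 12422 and covered 9 of the 10 genes. None of the 12 named more than 1 gene. The annotation used here assigned no probe set to Gpi1, which was not analysed here. Per the labels, total RNA of mouse spleen was bought under 1 catalogue number and hybridised to 2 arrays, called array 1 and array 2. The labels name no treatment, strain, age, number of animals or pooling. Both arrays form 1 group, so there was no contrast of conditions and no test was run. Nothing in the labels says that the arrays held separate animals, and the spread between them may be technical.

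In glycolysis, hexokinases trap glucose in the cell as glucose-6-phosphate, phosphofructokinase commits the sugar to breakdown, aldolase splits it, and the later enzymes recover ATP while converting the fragments to pyruvate. Lactate dehydrogenase then turns pyruvate into lactate and restores the cofactor that the pathway needs. Mature red blood cells have no mitochondria and live on glycolysis, and lymphocytes and macrophages raise it when they are activated, so the spleen holds several cell types that use it. Several steps are served by isozymes from different genes, and many of these genes respond to hypoxia-inducible factor, a transcription factor that binds DNA around the cores ACGTG and GCGTG.

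The promoters were therefore read for these cores. RefSeq of build GRCm38.p6 gave 15 start sites for all 10 genes, and the 250 bases before each were searched for ACGTG and for GCGTG on both strands. A palindromic CACGTG holds ACGTG on both strands and was counted on each. Those of the 2 hexokinase genes are printed because the signals of these genes on the arrays lay on opposite sides of the cutoff for brightness. Those of Pgk1 and of Ldha at its start site 1 are printed because they held several ACGTG cores. The window of Ldha at start site 2, not printed, held 0 ACGTG and 1 GCGTG. Capitals mark every ACGTG and GCGTG on either strand, and each sequence runs 5′ to 3′ on the strand of its gene.
Hk1, start site 1, chr10:62379909-62380158, minus strand: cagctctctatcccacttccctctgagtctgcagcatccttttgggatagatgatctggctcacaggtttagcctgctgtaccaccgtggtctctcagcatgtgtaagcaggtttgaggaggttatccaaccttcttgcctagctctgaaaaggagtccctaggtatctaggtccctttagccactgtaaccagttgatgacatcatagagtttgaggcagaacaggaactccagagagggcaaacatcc
Hk1, start site 2, chr10:62340422-62340671, minus strand: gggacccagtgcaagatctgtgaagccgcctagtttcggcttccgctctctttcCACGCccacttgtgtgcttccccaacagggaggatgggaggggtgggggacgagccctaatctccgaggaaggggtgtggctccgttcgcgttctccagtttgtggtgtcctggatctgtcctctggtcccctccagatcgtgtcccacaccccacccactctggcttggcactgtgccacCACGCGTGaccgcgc
Hk2, chr6:82774455-82774704, minus strand: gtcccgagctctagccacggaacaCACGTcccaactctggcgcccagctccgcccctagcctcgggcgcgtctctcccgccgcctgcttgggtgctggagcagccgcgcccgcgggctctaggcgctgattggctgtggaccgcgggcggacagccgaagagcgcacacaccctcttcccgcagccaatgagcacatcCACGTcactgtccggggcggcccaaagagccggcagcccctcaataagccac
Pgk1, chrX:106186850-106187099, plus strand: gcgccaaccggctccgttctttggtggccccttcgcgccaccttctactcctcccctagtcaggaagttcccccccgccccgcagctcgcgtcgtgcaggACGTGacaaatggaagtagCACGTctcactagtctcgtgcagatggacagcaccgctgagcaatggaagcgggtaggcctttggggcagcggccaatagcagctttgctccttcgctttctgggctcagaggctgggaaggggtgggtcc
Ldha, start site 1, chr7:46845554-46845803, plus strand: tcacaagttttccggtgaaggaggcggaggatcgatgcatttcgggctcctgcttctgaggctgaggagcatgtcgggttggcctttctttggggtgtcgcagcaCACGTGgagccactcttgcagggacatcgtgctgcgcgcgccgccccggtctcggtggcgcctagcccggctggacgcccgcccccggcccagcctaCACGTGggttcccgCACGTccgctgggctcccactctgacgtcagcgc

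The core ACGTG was found in 7 of the 15 windows, which belonged to 6 of the 10 genes, Hk2, Aldoa, Pgk1, Pgam1, Pkm and Ldha. Among all 32851 promoter windows of the same length 16.6% held it. In Aldoa the same site lay in the overlapping windows of 2 start sites. GCGTG was found in 4 of 15 windows, against 28.2% of all windows, in Hk1, Pfkl, Pgam1 and Ldha. The promoter of Ldha at its start site 1 held 5 ACGTG counts, 4 of them from 2 copies of the palindrome CACGTG. That palindrome was found in 1 of the 15 windows, against 6.02% of all windows. In Pgk1 and Hk2 there were 2 ACGTG cores each. Counted on both strands, 3 of the 15 windows held 2 or more ACGTG, against 6.81% of all windows. The members' windows had a median GC content of 62.8%, from 49.6% to 69.6%, against a median of 52.4% for all windows. Among windows with at least 60% GC, 7 of 9 of the members' held ACGTG, against 23% of all. These matches describe the letters in the windows. The array values do not tell start sites apart.

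Each probe set had 1 deposited signal intensity per array on a linear scale. Bright probe sets were those with values over the 60th percentile of each array, controls apart, which was 346.32 on array 1 and 342.22 on array 2. By this rule 10 of the 12 glycolysis probe sets were bright, against 37.9% of all 12422. Counted as genes, 8 of the 9 measured enzymes had a bright probe set, against 45.2% of 8251 named genes. The median over the 9 enzymes of the log2 signal, taking each gene's brightest probe set, was 10.48, against 8.29 for all named genes. Brightness depends on the probe sequence as well as on the amount of transcript. A difference in signal between 2 enzymes is therefore not read as a difference in transcript level here. A lower bar was the highest value among bacterial control probe sets, whose targets are foreign to mouse, 95 on array 1 and 76.2 on array 2. Of the glycolysis probe sets 11 of 12 exceeded it on each array, against 65.5% of all, and 9 of 9 genes had such a probe set, against 73.9% of named genes. All 8 bright enzymes stayed bright with the cutoff at the 75th percentile, which 23.5% of all probe sets passed.

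**Figure D1:**
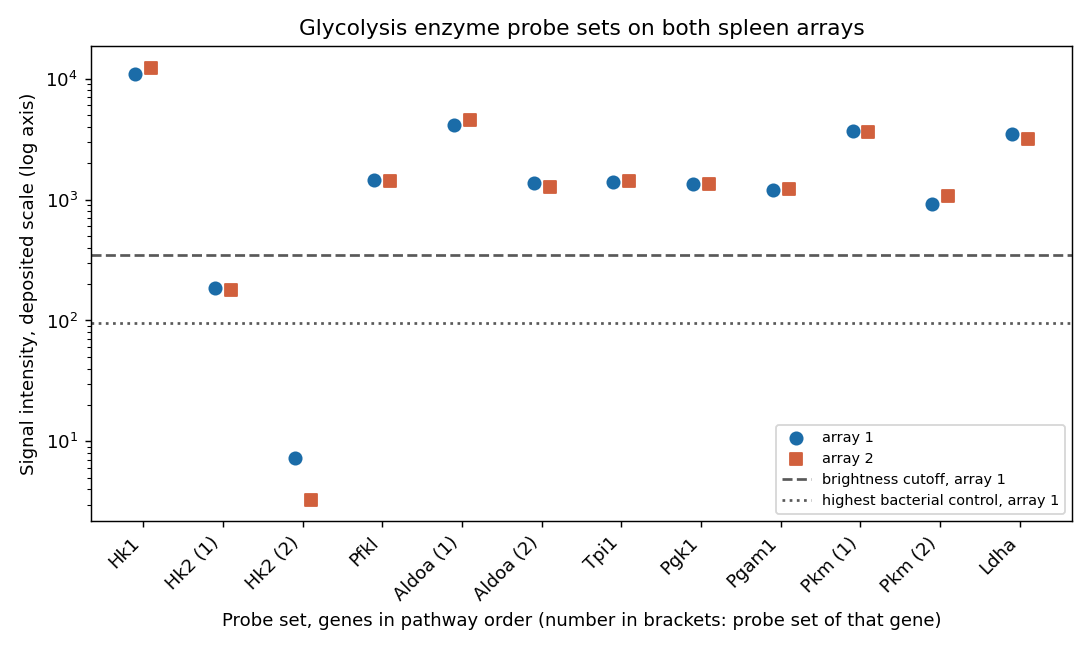
Signal intensity (log axis) of the 12 glycolysis probe sets on array 1 (circles) and array 2 (squares), with genes in pathway order and the probe sets of a gene numbered from the brighter one. The dashed line is the brightness cutoff and the dotted line the highest bacterial control, both of array 1. The 10 bright probe sets lie between 915.5 and 12353.8, above the cutoff on both arrays, and both Hk2 probe sets lie below it.

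The hexokinase step gave different readings for its 2 listed genes. Hk1 (chromosome 10, 62268855 to 62379920 in GRCm38.p6), the isozyme of most tissues and the main one of red cells, gave 10828.6 on array 1 and 12353.8 on array 2, a mean of 11591 ± 1078 (SD, n = 2 arrays here and below). It was bright on both arrays. Hk2 (chromosome 6, 82725025 to 82774454), the isozyme that muscle, fat and many activated or dividing cells induce, was read by 2 probe sets. The brighter one gave 184 and 179, a mean of 181.5 ± 3.54, below the cutoff for brightness but above the highest bacterial control. The dimmer one gave 7.3 and 3.3, below the medians of the bacterial controls, 20.6 and 22.9. No Hk2 probe set was bright, and those of Hk2 disagreed on whether any signal lay above the controls.

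Phosphofructokinase was represented by Pfkl (chromosome 10, 77986947 to 78009807), the subunit named after liver that blood cells also use. Pfkl gave 1437.6 on array 1 and 1424 on array 2, a mean of 1431 ± 9.62. Both values lay far above the cutoff and differed by less than 1% of the signal. Aldoa (chromosome 7, 126795234 to 126800994) encodes the aldolase of muscle, red cells and most other tissues. Its brighter probe set gave 4100 and 4544.3, a mean of 4322 ± 314, and its dimmer one gave 1368.8 and 1272, a mean of 1320 ± 68.4. Both Aldoa probe sets were bright, and both carry the suffix _f_at, which marks probes shared within a family of similar sequences. A probe set of Aldoart2, an aldolase retrogene chosen with its values known, gave 92 and 243.5 and was not bright.

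The enzymes after the split were bright as well. Tpi1 (chromosome 6, 124810586 to 124814158), which interconverts the 2 triose phosphates, gave 1400.2 on array 1 and 1417.9 on array 2, a mean of 1409 ± 12.5. Pgk1 (chromosome X, 106187100 to 106203699), the first ATP-forming enzyme of the pathway, gave 1349 and 1338.5, a mean of 1344 ± 7.42. Pgam1 (chromosome 19, 41911871 to 41918665), the mutase that moves the phosphate group within phosphoglycerate, gave 1188.8 and 1229.7, a mean of 1209 ± 28.9. None of the probe sets of Tpi1, Pgk1 and Pgam1 carries a suffix for shared probes, and in each the arrays were close together.

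Pyruvate kinase, which forms ATP and pyruvate in the last step before lactate, was read by 2 probe sets of Pkm (chromosome 9, 59656576 to 59679372). That gene makes the forms M1 and M2 by alternative splicing, and the probe sets were not assigned to either form here. The brighter one, with the suffix _s_at, gave 3671 on array 1 and 3592.7 on array 2, a mean of 3632 ± 55.4, and the dimmer one, with the suffix _f_at, gave 915.5 and 1073.6, a mean of 995 ± 112. Both Pkm probe sets were bright, and their suffixes mark probes that match several transcripts or a family. Ldha (chromosome 7, 46842274 to 46855627), the lactate dehydrogenase subunit that predominates in muscle and in lactate-forming cells, gave 3454.8 and 3163.2, a mean of 3309 ± 206. Ldha was bright on both arrays and somewhat lower on array 2.

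The spread between the arrays was small for these enzymes. Low values were floored before log2 was taken. Differences between the arrays were taken as log2 of array 2 minus log2 of array 1, less the median difference of all 4708 bright probe sets. They ran from -0.13 in Ldha to 0.23 in the dimmer Pkm probe set, with 0.19 in Hk1 and 0.15 and -0.10 in the 2 Aldoa probe sets. The remaining 5 bright members, Pfkl, Tpi1, Pgk1, Pgam1 and the brighter Pkm probe set, lay between -0.03 and 0.05. A difference larger than that of Hk1 was found in 30.1% of bright probe sets. All 10 lay inside the central 95% of bright probe sets, from -0.45 to 0.43. Of the 10, 5 were higher on array 2 and 5 on array 1, as the centring gives for 50% of bright probe sets in each direction. Their median was 0.01, against 0 for all bright probe sets by construction. For the bright members the pooled SD of the log2 signals was 0.0847, or 6.05% of the signal, against 0.152, or 11.1%, for all bright probe sets and 0.142 for the 3106 brightest of all probe sets, among which all 10 lay. Whether 10 probe sets differ from the rest in spread was not tested. With low values floored, none of the 12 was over 2-fold apart, against 5.13% of all probe sets and 0.127% of bright ones. The dimmer Hk2 probe set, at 7.3 and 3.3, lay under the floor of 41.8 on both arrays. Its difference was set by the floor and says nothing about its spread. The 2 probe sets of Aldoa moved in opposite directions between the arrays, and so did those of Pkm.

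**Figure D2:**
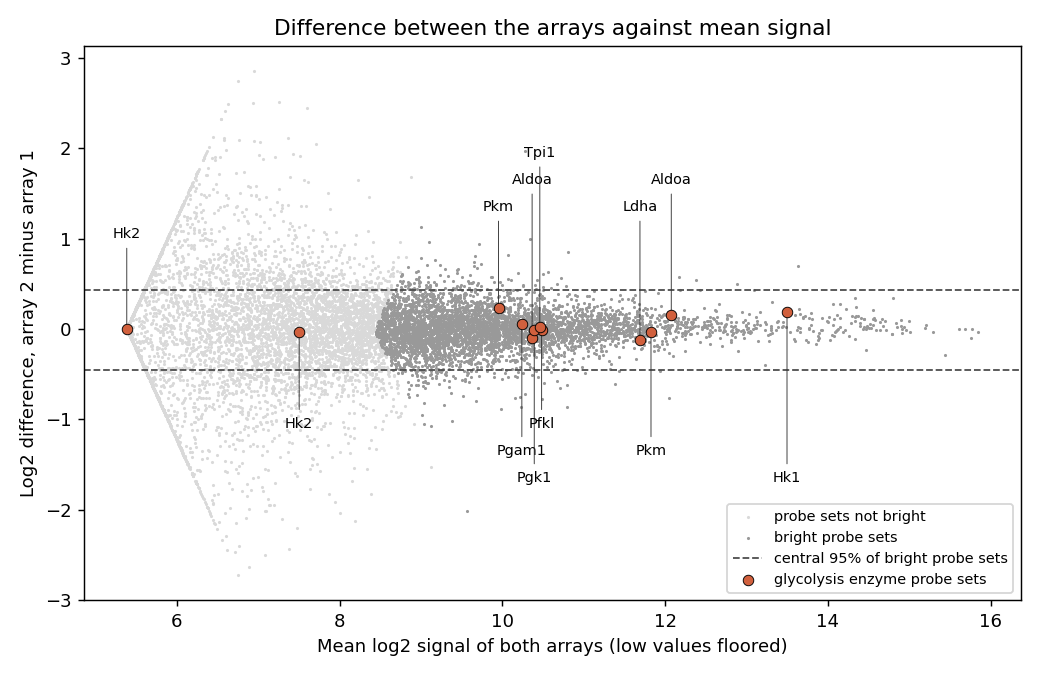
Log2 difference, array 2 minus array 1, against the mean log2 signal of both arrays for all 12422 probe sets (grey) and the 12 glycolysis probe sets (orange, named). The dashed lines bound the central 95% of bright probe sets, -0.45 and 0.43, and all glycolysis probe sets lie between them. The dimmer probe set of Hk2 sits at the floor that replaced low values.

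The reactions of glyceraldehyde-3-phosphate dehydrogenase and enolase have no gene among the 10. Gapdh was read by control probe sets at 3 positions of its transcript. They gave 11209.6 on array 1 and 12169.4 on array 2 at the 5′ end, 10339 and 10501.4 in the middle, and 10816.8 and 11716.3 at the 3′ end. All 3 lay above the brightness cutoff on both arrays. Probe sets that name Gapdh together with other genes cannot be assigned to it, and 2 such probe sets differed: 1 gave 4368.5 and 3748.6 and was bright, and the other gave 154.2 and 117.8 and was not. In the list for these steps 1 of 3 measured genes was bright, with a median of 7.48 on the log2 scale. Of enolases, Eno3, the muscle form, gave 678.5 and 572.5 and was bright, while Eno2, the neuronal form, gave 93.6 and 134.7 and was not. Eno1 and Eno1b, the other enolase genes of the list, had no probe set that names 1 gene alone. They have no value here, so the enolase step was read only in part. Gapdhs, the sperm form of the dehydrogenase, was not bright, with 151.8 and 210.8 in its brighter probe set.

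Other isozymes of the same steps were mostly not bright. Of 8 measured genes 1 was, Pfkm, the muscle subunit of phosphofructokinase, at 366.1 on array 1 and 477.5 on array 2, just above the cutoff. It was no longer bright with the cutoff at the 75th percentile, 641.1 and 633.525. Pfkp, the platelet subunit, gave 233.6 and 244.5 in its brighter probe set. Pklr, the pyruvate kinase of liver and red cells, gave 292.5 and 193 in its brighter probe set. Ldhb, the heart-type lactate dehydrogenase subunit, gave 137.7 and 201.3 in its brighter probe set. In these probe sets the 3 genes lay below the cutoff and above the highest bacterial control of each array. The dimmer Ldhb probe set gave 24.3 and 4.5, below that control on both arrays. Aldoc, the brain aldolase, gave 118.5 on array 1 and 47.9 on array 2, so only array 1 exceeded its highest control. Pgk2 and Ldhc of germ cells and Pgam2 of muscle did not reach the highest bacterial control of either array. Pgk2 gave 14.1 and 8.2, Pgam2 9 and 8.2, and Ldhc 43 and 65.9. The median of these 8 genes was 6.81 on the log2 scale, against 8.29 for all named genes.

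Of 4 enzymes that set the level of regulatory sugar phosphates 2 were bright, and the median of the list was 8.66 on the log2 scale. Bpgm, the red cell mutase that makes bisphosphoglycerate and so lowers the oxygen affinity of haemoglobin, gave 4180.3 on array 1 and 3558.8 on array 2, a mean of 3870 ± 439, and was bright. Minpp1, a phosphatase that can remove this compound, gave 795.4 and 816.5 and was bright. Pfkfb2 and Pfkfb3, which make the fructose bisphosphate that activates phosphofructokinase, were not. Pfkfb3 gave 331.4 and 122.8 in its brighter probe set, a log2 difference of -1.43, and Pfkfb2 gave 67.8 and 15.7.

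**Figure D3:**
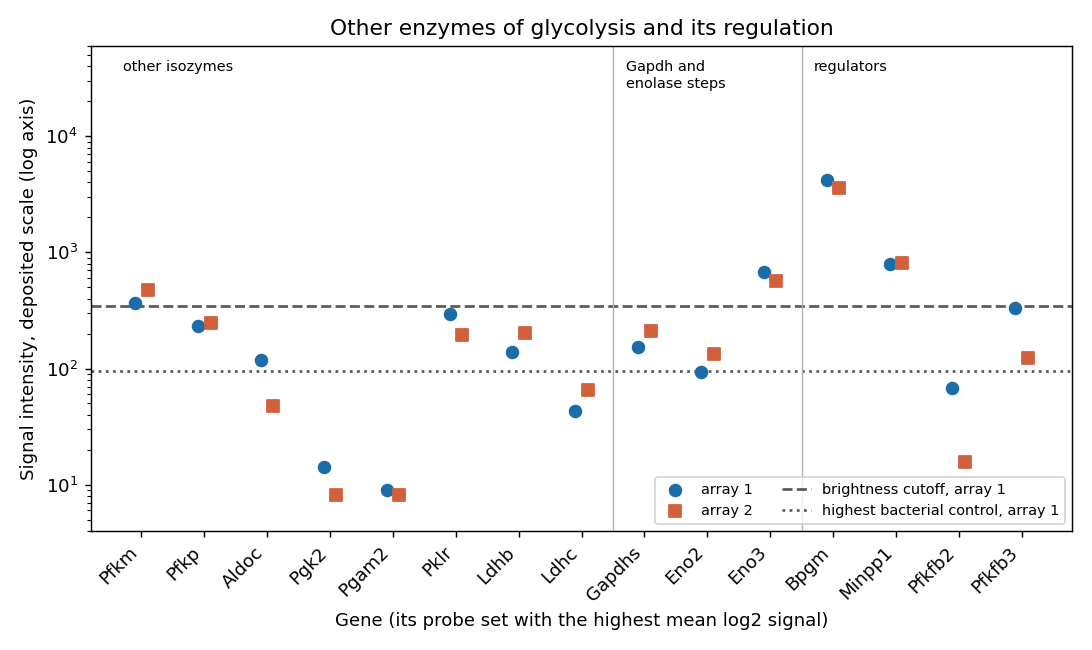
Signal intensity (log axis) of other isozymes of the same steps, of Gapdh and enolase step genes and of regulators, on array 1 (circles) and array 2 (squares), each by its brighter probe set. Lines show the brightness cutoff (dashed) and the highest bacterial control (dotted) of array 1. Pfkm, Eno3, Bpgm and Minpp1 lie above the cutoff on both arrays.

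Around the pathway, 24 of 61 measured genes in 9 lists were bright, against 45.2% of all named genes. Of 7 genes of hexose uptake and lactate export, with a median of 7.34 on the log2 scale, 1 was bright, Bsg, a chaperone of the lactate carriers, at 4219.7 on array 1 and 4135.8 on array 2. The glucose carrier Slc2a1, found in many tissues, gave 124.5 and 212.3, and Slc2a3, which leukocytes use, gave 435.1 and 237.3 in its brighter probe set. Slc2a3 therefore passed the cutoff on array 1 alone. Slc16a1, a lactate carrier, gave 168.9 and 170.4 and was not bright.

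The pentose phosphate pathway, which leaves glycolysis at glucose-6-phosphate and supplies NADPH and ribose, had 5 of 8 measured genes bright. G6pdx, another gene of the list, had no probe set that names 1 gene alone and so has no value here. G6pd2 gave 67.6 and 14.5 and was not bright. Taldo1 and Tkt, which return its sugars to glycolysis, gave 2080.1 and 1992.3, and 2011.8 and 2098.7, on arrays 1 and 2. The other bright members were Pgls, Pgd and Rpia, and the median of the list was 10.47 on the log2 scale. Of the genes of the mitochondrial pyruvate dehydrogenase complex and its kinases, 5 of 8 were bright. Among them were the subunits Pdha1, at 1275.3 and 1306, and Pdhb, at 1441 and 1571.1. The subunit Dlat was not bright, at 216.9 and 186.9 in its brighter probe set. The kinases Pdk3 and Pdk4, which inhibit that complex, were bright at 531.9 and 633.6 and at 411.4 and 612.3, and Pdk1 was not, at 170.3 and 240.1. The median of this list was 9.08.

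Of 7 gluconeogenesis genes 2 were bright, G6pc3 and Pck2. The liver and kidney enzymes Fbp1 and Pck1 gave 117.5 and 120, and 171.8 and 194.6, and were not. G6pc, the glucose-6-phosphatase of the same organs, gave 335.4 on array 1, just under the cutoff, and 437.1 on array 2, above it. Of 8 glycogen genes 2 were bright, Gys1 and Pgm1, while the muscle phosphorylase Pygm gave 18.3 and 40.9. The median log2 signal was 7.58 for gluconeogenesis and 7.50 for glycogen. Of 8 genes for transcription factors of glycolytic genes and their regulators 5 were bright, with a median of 8.74. Hif1a, the oxygen-regulated subunit of hypoxia-inducible factor, gave 3065.5 and 2943.5 in the brighter of its _f_at probe sets. Its partner Arnt gave 210.3 and 290.8 in its brighter probe set and was not bright, and Epas1, the related subunit found in endothelium, gave 193.7 and 165.2. Myc, which also drives glycolytic genes, gave 354.7 and 404.2, just above the cutoff. The oxygen sensor Egln2 gave 1858 and 1992.

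**Figure D4:**
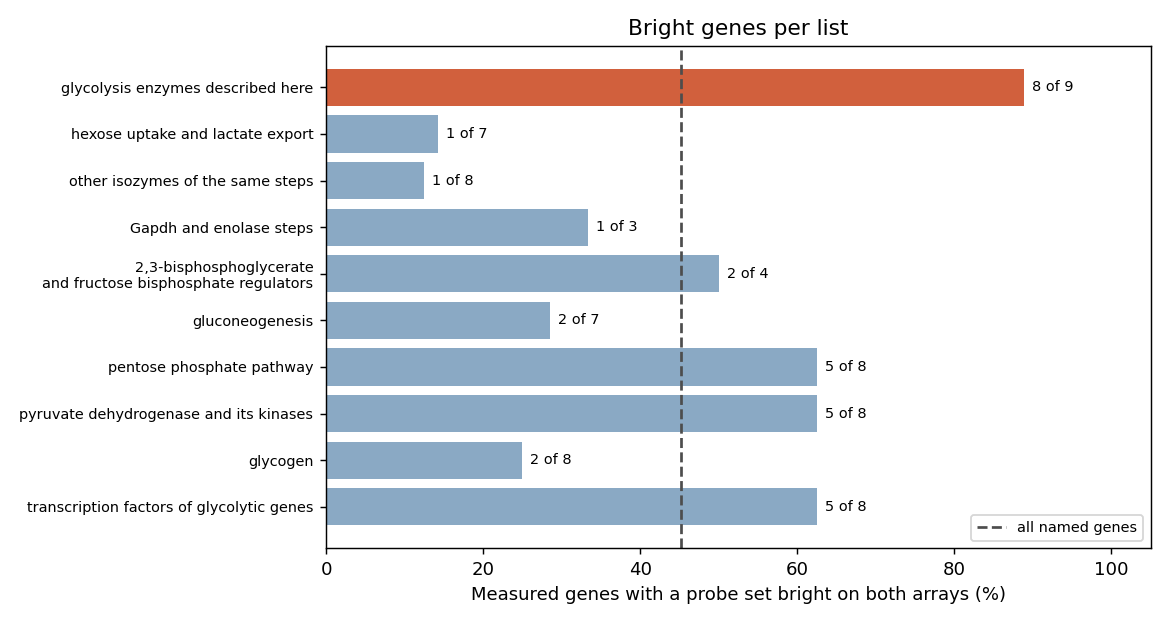
Percentage of measured genes with a bright probe set for the glycolysis enzymes described here and for 9 lists of neighbouring pathways, with counts beside the bars. The dashed line is the 45.2% of all named genes. The glycolysis enzymes reached 8 of 9, and the other isozymes of the same steps 1 of 8.

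The labelled tissue was checked against markers. All measured markers were bright for B cells (4 of 4), T cells (5 of 5), macrophages (4 of 4), erythroid cells (3 of 3) and neutrophils (3 of 3). A marker counted as bright by any of its probe sets. Among these markers, the dimmer probe sets of Cd3d, Csf1r, Adgre1 and Epb42 were not bright, and those of Ms4a1 and C1qb were. The RNA held markers of several cell types, and in such RNA fewer cells of a type and less RNA per cell cannot be told apart, for the enzymes above as well. Of 6 acinar pancreas markers 6 were bright, with a summed intensity of 59008 on array 1 and 60893 on array 2. This was the highest sum of all the marker lists. The sums were 26930.7 and 27621.6 for B cells, 21503.9 and 23308.1 for neutrophils, and 16581.6 and 16335.4 for erythroid cells. Macrophage markers gave 13804.5 and 13895.6, and T cell markers 3979.3 and 4158.1. The lists differ in their number of genes, and brightness depends on the probe sequence. Of 7 skeletal muscle markers 0 were bright, with sums of 915.2 and 750.3, and Ckm, the creatine kinase of muscle, gave 201.7 and 258. Of 4 liver markers 2 were bright, Alb and Apoa1, with sums of 2883 and 3519, of 3 brain markers 1, and of 4 germ cell markers 1. The part of pancreas or liver RNA in the enzyme signals was not tested.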

How the data were processed

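RNA of mouse spleen was measured on 2 arrays, and the authors deposited a linear signal intensity for each of 12488 probe sets on each array. The values show a scaling to a common target before deposit: without the lowest and highest 2% of probe sets their mean was 500.265 and 500.278. The software behind the deposited intensities and detection calls were not given in the sources used here. Control probe sets (66, with the AFFX prefix) were left out, except 15 bacterial controls as background and those of Gapdh. The platform annotation named 1 gene for 10833 probe sets, several for 396 and none for 1193. Gene positions and promoters came from RefSeq GRCm38.p6; the arrays name no genome build.

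Intensities were floored at the 20th percentile of their array (41.8 in each case) before log2 was taken. Lists counted a gene as bright when any of its single-gene probe sets was bright; a list's median used each gene's probe set with the highest mean. The pooled SD is the root mean square of the log2 differences divided by the square root of 2. No p-value was computed, and precision is limited by having 2 arrays. Every measured gene of the short lists could be named, and all probe sets of the 10 enzymes were. The enzymes and lists were chosen with earlier results of these data known. Alternatives changed the cutoff, the normalization, the floor and the probe sets used. Computation used numpy 2.4.6, pandas 2.3.3, statsmodels 0.14.6 and matplotlib 3.10.9 under Python 3.11.15.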

Additional observations from a re-analysis of the deposited data

How the results depend on the processing

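The number of bright glycolysis probe sets was 10 of 12 with the cutoff at the 50th or 75th percentile, which 47.3% and 23.5% of all probe sets passed, and 11 of 12 with the highest bacterial control as cutoff (65.5% of all probe sets passed), at which the brighter Hk2 probe set was added. It was 10 on each array alone, and the number of bright genes was 8 on each array alone. Without the 4 probe sets marked for shared probes, 6 of 8 probe sets and 6 of 7 genes were bright, because all those of Aldoa and Pkm were left out. The shares of all probe sets and named genes on each array alone, and without marked probe sets, are not given here. With Hk1 left out, chosen after seeing the data, 9 of 11 probe sets were bright. The pooled SD of the bright members stayed between 0.0770 and 0.0847 over quantile and loess normalization, no centring, a pseudocount of 16, other probe sets, and Hk1 left out. Their median log2 difference, 0.01, lay between -0.004 and 0.010 under the alternatives run. No member was over 2-fold apart in any of them, with low values floored or the pseudocount added. For the 9 neighbouring lists, the 24 bright genes became 46 of 61 with the highest bacterial control as cutoff, passed by 73.9% of all named genes, and 28 and 16 with the cutoff at the 50th and 75th percentiles. The share of all named genes at the 50th and 75th percentiles is not given here. The bright genes of the lists were 25 on each array alone and 25 of 62 once probe sets naming several genes were added. The latter alternative was chosen after seeing the data. Differences cannot be computed from 1 array. No paired analysis was possible because there is only 1 group.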
